A study of Homo sapiens with 12 samples.

Results

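The connexins GJA1, GJB2, GJB6 and GJB5 were followed in 2 human oesophageal squamous cell carcinoma lines whose level of CDCA7, a nuclear protein that works with a chromatin remodeller, had been changed. These 4 genes were selected by name from the 21 connexin genes among 58735 genes in the table, with the values of all 12 libraries already known. Their levels and differences are therefore a description, and no test is given for them. KYSE180 was sequenced with CDCA7 overexpression and as native control cells, and KYSE150 with a hairpin RNA against CDCA7 (shCDCA7) and as native control cells, with 3 libraries in each of the 4 groups. The labels name no empty vector or scrambled hairpin for the controls, so an effect of the vector cannot be told apart from one of CDCA7. They do not say whether the modified lines are clones or whether replicates came from separate cultures, so the spread between replicates may be technical.

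Connexins are membrane proteins with a shared fold that assemble into hexameric half-channels, and the half-channels of neighbouring cells dock to form gap junctions that pass ions and small metabolites. Stratified squamous epithelia use several of them in a layered pattern. GJA1 encodes the connexin found most widely across tissues, GJB2 and GJB6 encode a pair of inner ear and epidermal connexins that can assemble with each other, and GJB5 encodes a connexin with mainly epidermal expression. Mutations of GJB2 and GJB6 cause hearing loss and skin disease, and those of GJA1 cause oculodentodigital dysplasia.

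The positions given here are on GRCh38. GJB2 (ENSG00000165474, chromosome 13, 20187463 to 20193010, minus strand) and GJB6 (ENSG00000121742, chromosome 13, 20221962 to 20232395, minus strand) are 28951 bases apart, with GJA3 on the other side of GJB2. GJB5 (ENSG00000189280, chromosome 1, 34755047 to 34758512, plus strand) and GJA1 (ENSG00000152661, chromosome 6, 121435577 to 121449727, plus strand) lie elsewhere. In the annotation every coding transcript of the 4 genes has its coding sequence in 1 exon.

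RefSeq promoters (GRCh38.p14) were available for 3 of the 4 genes, GJA1, GJB2 and GJB6. The stretches upstream of GJB2 and GJA1 are shown because both genes were far higher in KYSE180 than in KYSE150 while their promoters differ in base composition. They are cut to the part outside annotated exons, and capitals mark matches to the GC box GGGCGG, on either strand, the letters bound by SP1-type factors.
GJB2, chr13:20193011-20193188, minus strand: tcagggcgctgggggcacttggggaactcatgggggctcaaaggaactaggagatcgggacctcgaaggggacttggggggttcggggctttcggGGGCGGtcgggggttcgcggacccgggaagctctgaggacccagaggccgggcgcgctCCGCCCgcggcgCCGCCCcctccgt
GJA1, chr6:121435396-121435576, plus strand: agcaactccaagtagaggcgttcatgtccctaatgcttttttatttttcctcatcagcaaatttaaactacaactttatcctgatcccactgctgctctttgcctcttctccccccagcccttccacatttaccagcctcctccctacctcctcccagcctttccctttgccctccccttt
Over the 250 bases before the start, the GC content is 70.0% for GJB2, 48.0% for GJA1 and 50.8% for GJB6. GJB2 holds 25 CpG dinucleotides, and GJA1 and GJB6 hold 1 each, against a median of 11 over 35114 promoters. GJB2 has 3 GC boxes, a motif present in 42.6% of promoters of that length, and GJA1 and GJB6 have 0. The AP-1 motif TGANTCA, which reads the same way on both strands apart from its middle base, occurs in 6.57% of promoters. GJA1 has 1 match, 48 bases before the RefSeq start but within an annotated exon of GJA1, and so outside the stretch above. It is shown in capitals with its surroundings because FOS and JUN, whose levels follow further on, bind these letters. Whether FOS, JUN or SP1-type factors act on these promoters in either line was not tested.
GJA1, chr6:121435588-121435614, plus strand: tcctcccagtTGAGTCAgtggcttgaa
The E-box CACGTG (6.35% of promoters) and the letters TATAAA (10.7% of promoters), searched on both strands, have 0 matches in the 3 windows. The GJB6 window lies wholly within annotated exons of GJB6 and is not shown.

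Levels are the deposited values, taken as FPKM, that is, reads per kilobase of gene length scaled by an effective library size. Differences are in log2(FPKM + 1) with the standard error (SE) of limma-trend. Because 1 is added, the log2 difference of a gene near or under 1 FPKM is smaller than the ratio of its levels. Libraries held 16.3 M to 19.6 M reads. CDCA7 itself averaged 53.9 ± 8.03 FPKM with overexpression and 19.9 ± 3.61 FPKM in KYSE180 controls, and 9.41 ± 0.670 FPKM with shCDCA7 and 26.2 ± 1.06 FPKM in KYSE150 controls (SD, n = 3 each). The shCDCA7 replicate 2 library stood apart, with 11.2% of its reads from mitochondrial genes, against 5.20% and 5.73% in the other shCDCA7 libraries and 4.03% to 4.15% in KYSE150 controls. Overexpressing libraries held 7.97% to 8.65% mitochondrial reads, against 4.76% to 6.38% in KYSE180 controls, and the part of this share in the differences given here was not tested. Of 10 squamous epithelial markers, 10 averaged over 1 FPKM in KYSE180 and 9 in KYSE150, where SOX2 was near 0. Fibroblast and leukocyte markers were at or near 0 apart from COL1A1, at 4.93 FPKM or less in every group mean. Among endothelial markers the defining PECAM1 and CDH5 were near 0, and EGFL7 held nearly all of the sum.

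GJA1 was the most abundant connexin of KYSE180 and a minor one of KYSE150. It stood at 80.1, 93.8 and 86.7 FPKM in CDCA7-overexpressing KYSE180 cells, against 56.6, 69.2 and 61.7 FPKM in KYSE180 controls. All overexpressing libraries lay above all controls. The means were 86.9 ± 6.85 FPKM with overexpression and 62.5 ± 6.33 FPKM in controls (SD, n = 3 each), 1.39 times as high, and the log2 difference was 0.47 (SE 0.13). In KYSE150, GJA1 stood at 6.95, 7.75 and 6.70 FPKM with shCDCA7, against 4.60, 5.47 and 4.81 FPKM in controls. These groups did not overlap either, and the ratio of means, 1.44, went the same way as in KYSE180 although CDCA7 had moved the other way. The log2 difference in KYSE150 was 0.45 (SE 0.11), and it was 0.22 when libraries were scaled to equal totals, a scaling that moved the median of all tested genes in KYSE150 by -0.16. Between the native lines, KYSE180 controls had 12.6 times the GJA1 of KYSE150 controls, a log2 difference of 3.41 (SE 0.11). The order of levels ran from overexpressing KYSE180 through KYSE180 control and shCDCA7 to KYSE150 control, with no overlap between neighbours.

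**Figure D1:**
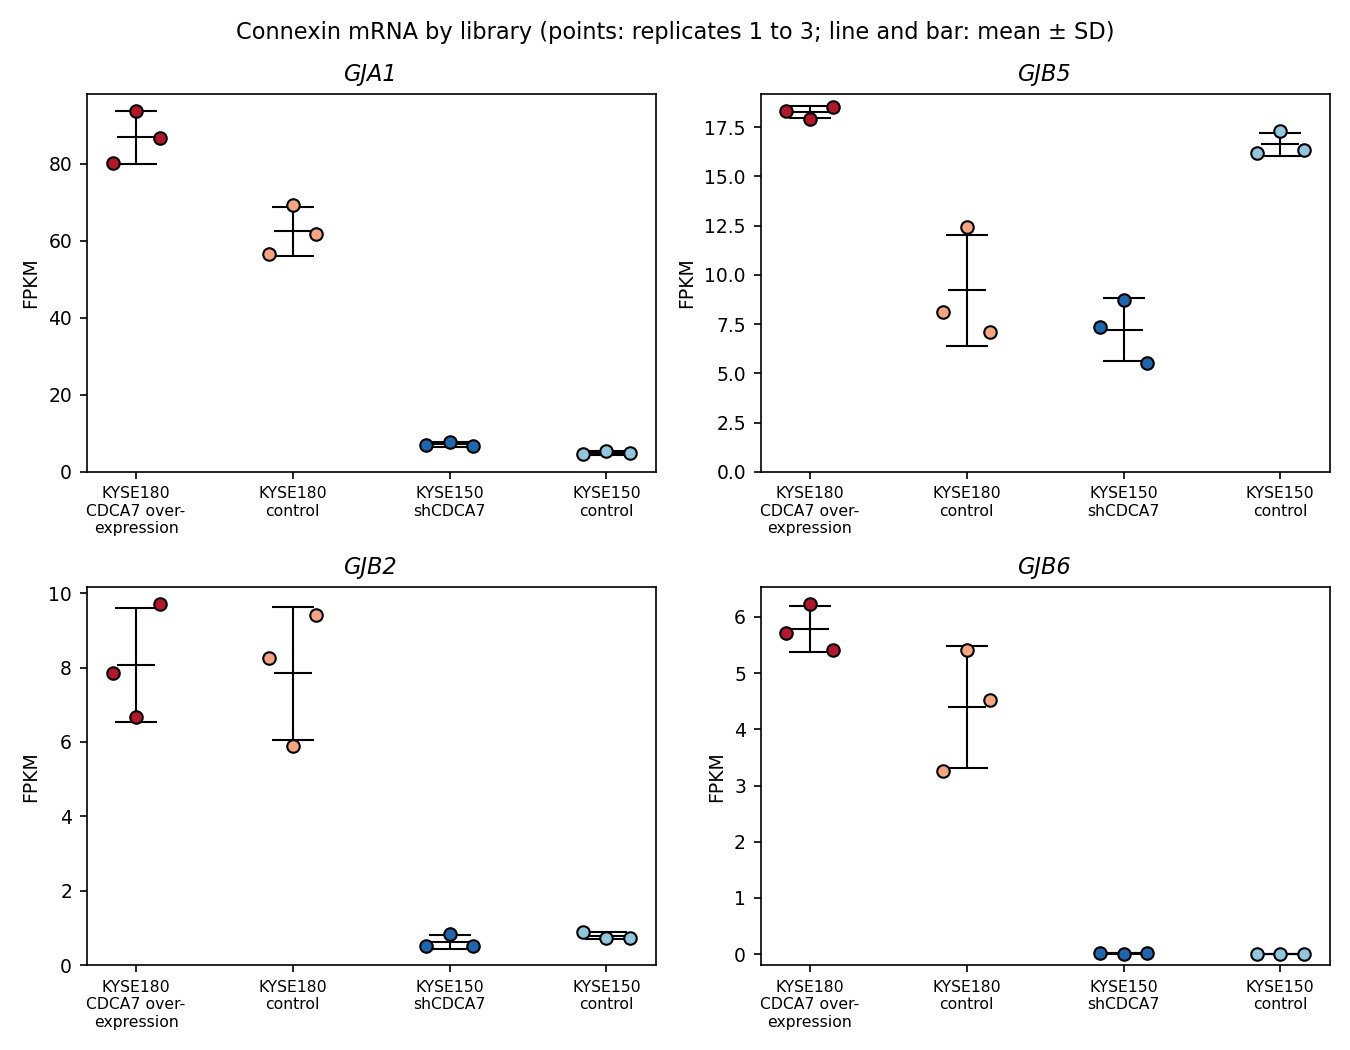
FPKM (vertical axes) of GJA1, GJB5, GJB2 and GJB6 in each library, with points for replicates 1 to 3 and a line and bar for the mean ± SD of each of the 4 groups. GJA1, GJB2 and GJB6 are high in both KYSE180 groups, whereas GJB5 is high in overexpressing KYSE180 (17.9 to 18.5 FPKM) and in KYSE150 controls (16.2 to 17.3 FPKM).

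GJB5 differed most with CDCA7 among the 4 genes in both lines, and its difference had the sign of the CDCA7 change in each. It stood at 18.3, 17.9 and 18.5 FPKM in overexpressing KYSE180, against 8.12, 12.4 and 7.11 FPKM in KYSE180 controls. The overexpressing libraries lay close together and above all controls, of which replicate 2 was the highest. Means were 18.3 ± 0.307 FPKM with overexpression and 9.22 ± 2.83 FPKM in controls (SD, n = 3 each), 1.98 times as high, with a log2 difference of 0.95 (SE 0.19). In KYSE150, GJB5 stood at 7.37, 8.74 and 5.54 FPKM with shCDCA7, against 16.2, 17.3 and 16.3 FPKM in controls. All shCDCA7 libraries were below all controls, with means of 7.22 ± 1.60 FPKM for shCDCA7 and 16.6 ± 0.599 FPKM for controls (SD, n = 3 each), a ratio of 0.434. The log2 difference was -1.12 (SE 0.16), and -1.36 with equal library totals. At baseline KYSE180 controls held 0.555 times the GJB5 of KYSE150 controls, a log2 difference of -0.82 (SE 0.18), so that GJB5 alone of the 4 genes was lower in native KYSE180. KYSE180 control and shCDCA7 libraries overlapped, and overexpressing KYSE180 lay just above KYSE150 controls.

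GJB2 differed far more between the lines than with CDCA7. It stood at 7.85, 6.66 and 9.70 FPKM in overexpressing KYSE180, against 8.25, 5.90 and 9.40 FPKM in KYSE180 controls. The groups overlapped throughout, and the log2 difference of 0.04 (SE 0.19) was smaller than its error. Leaving out 1 library at a time moved that difference between -0.13 and 0.17. In KYSE150, GJB2 stood at 0.522, 0.832 and 0.514 FPKM with shCDCA7, against 0.900, 0.748 and 0.746 FPKM in controls, values that rest on 21 to 29 and on 37 to 49 reads. Replicate 2 of shCDCA7 fell among the controls, and the log2 difference was -0.15 (SE 0.10), with a ratio of means of 0.780. The difference was -0.26 (SE 0.07) with equal library totals and -0.24 (SE 0.07) without shCDCA7 replicate 2. KYSE180 controls had 9.84 times the GJB2 of KYSE150 controls, a log2 difference of 2.28 (SE 0.17).

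GJB6, the partner of GJB2 on chromosome 13, was present in KYSE180 and all but undetected in KYSE150. Its levels were 5.72, 6.22 and 5.41 FPKM in overexpressing KYSE180, against 3.26, 5.42 and 4.52 FPKM in KYSE180 controls. The lowest overexpressing library lay just under the highest control, and the log2 difference was 0.35 (SE 0.17) with a ratio of means of 1.31. KYSE150 gave 1, 0 and 1 reads in the shCDCA7 libraries and 0 reads in each control, and the 3 reads that a count of 0 allows per control library correspond to 0.0425 to 0.0468 FPKM. This limit covers counting error only. Set against it, the KYSE180 control mean of 4.40 ± 1.08 FPKM (SD, n = 3) was at least 98.0-fold higher than in KYSE150 controls. Within KYSE180 libraries GJB2 stood at 1.37, 1.07 and 1.79 times the FPKM of GJB6 with overexpression, and at 2.53, 1.09 and 2.08 times in controls, so the ratio overlapped between the groups. In RNA from whole cultures, fewer cells with a transcript and less of it per cell cannot be told apart.

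Over all genes tested in KYSE180, 9.08% of 15944 passed an adjusted p under 0.05 by limma-trend, 4.65% higher and 4.43% lower, and in KYSE150 19.9% of 14342 did, 10% higher and 9.86% lower. Between the controls 58% of 17088 did, 33.4% higher and 24.6% lower in KYSE180. An unadjusted p under 0.05 by limma-trend was reached by 4777 of the 15944 genes in KYSE180, 5268 of the 14342 in KYSE150 and 10671 of the 17088 between controls. Limma-voom called 1831, 2997 and 10142 genes in these comparisons. These shares and counts are the background for the gene lists described with the same measures. The 4 connexins, chosen with their values known, are not set against them. With equal library totals the calls over all genes were 502 higher and 1228 lower in KYSE180, against 741 and 706 with the deposited scaling, and 776 higher and 3017 lower in KYSE150, against 1440 and 1414. Groups did not overlap for 2, 2 and 4 of the genes in these comparisons, against 35.1%, 47.8% and 71.3% of all tested genes. Nothing is read from these counts.

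Summed over all 21 connexin genes, connexin mRNA came to 153 ± 4.65 FPKM with overexpression and 106 ± 12.9 FPKM in KYSE180 controls, and to 50.3 ± 3.07 FPKM with shCDCA7 and 65.8 ± 2.18 FPKM in KYSE150 controls (SD, n = 3 each). The sum lay above its controls in every overexpressing library and below them in every shCDCA7 library. GJA1 made up 56.7% ± 2.90 of the sum in overexpressing KYSE180 and 59.3% ± 1.78 in KYSE180 controls, but 14.3% ± 1.86 with shCDCA7 and 7.53% ± 0.442 in KYSE150 controls. GJB5 made up 11.9% ± 0.490 and 8.62% ± 1.65 in overexpressing and control KYSE180, and 14.4% ± 3.75 with shCDCA7 against 25.3% ± 0.0936 in KYSE150 controls. GJB2 and GJB6 held 5.28% ± 1.01 and 3.78% ± 0.250 of the sum with overexpression, against 7.61% ± 2.37 and 4.13% ± 0.626 in KYSE180 controls. Together the 4 genes made up 77.7% ± 1.88 of the sum with overexpression and 79.6% ± 2.32 in KYSE180 controls, and 30.0% ± 5.88 with shCDCA7 and 34.0% ± 0.392 in KYSE150 controls (SD, n = 3 each).

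**Figure D2:**
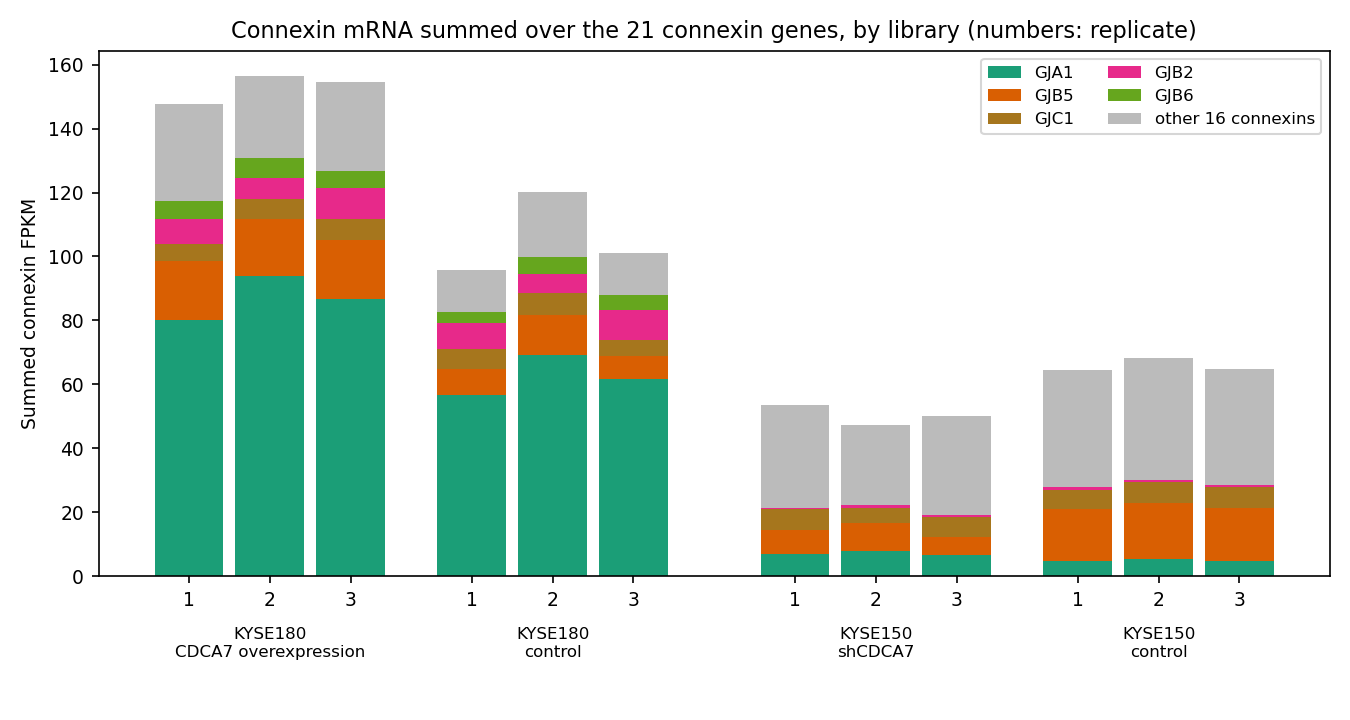
Summed FPKM of the connexin genes (vertical axis) in each of the 12 libraries, stacked by gene, with GJC1 in brown and the remaining 16 connexins in grey. GJA1 fills 54.2% to 61.1% of each KYSE180 bar, and 7.14% to 16.4% of each KYSE150 bar.

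The KYSE180 controls differed among themselves. Replicate 2 had the highest GJA1, GJB5 and GJB6 of the controls and the lowest GJB2. The summed level of the 10 squamous epithelial markers was also highest in that control, at 3940 FPKM against 2212 and 2118 FPKM in replicates 1 and 3, and it was 4353 to 5096 FPKM with overexpression. In KYSE150 the same sum was 765 to 834 FPKM with shCDCA7 and 481 to 507 FPKM in controls. The part of the squamous marker level in the connexin differences was not tested. Without control replicate 2 the GJB5 difference in KYSE180 was 1.16 and that of GJA1 was 0.55.

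The other 17 connexins were counted with the threshold for all genes, although the selection of the 4 genes also shaped which connexins remained. In KYSE180, 7 passed the filter, of which 2 were called higher, 1 lower and 4 neither, 42.9% called against 9.08% of all genes, with a median log2 difference of -0.01, against -0.00 over all tested genes. GJD3 measured 0.611 ± 0.205 FPKM with overexpression and 1.21 ± 0.205 FPKM in controls, GJB7 0.434 ± 0.182 and 0.713 ± 0.207 FPKM, and GJA3 1.69 ± 0.238 and 1.25 ± 0.246 FPKM (SD, n = 3 each), without a call. GJC1 ranged from 5.17 to 6.91 FPKM over the 6 KYSE180 libraries.

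In KYSE150, 6 of the other connexins passed the filter, with 0 higher, 1 lower and 5 neither by limma-trend, 16.7% called against 19.9% of all genes. Limma-voom called 1, on the lower side, 1 had an unadjusted p under 0.05, and the list had a median log2 difference of -0.26, against 0.00 over all tested genes. GJD3 fell to 0.188 ± 0.272 FPKM with shCDCA7, against 1.11 ± 0.162 FPKM in controls (SD, n = 3 each; log2 -0.85, SE 0.16, limma-trend adjusted p = 0.0165), which is 8 reads against 60 reads over 3 libraries each. GJD3 met the filter of 10 reads in 3 libraries only through the controls, with 16 to 22 reads each, against 0 to 7 with shCDCA7. A gene admitted this way could hardly come out other than lower, so nothing is concluded from its call. It passed the filter in 3 of the 6 fits that left out 1 library and was called in 2 of them. Its log2 difference was -2.49 with an added 0.1 FPKM and -3.14 by limma-voom. GJB7 measured 0.992 ± 0.179 FPKM with shCDCA7 and 1.38 ± 0.209 FPKM in controls (SD, n = 3 each), without a call. The remaining 10 connexins passed the filter in neither line, and 5 of them had no read in any library.

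Between native lines, limma-trend called 57.1% of the 7 other connexins tested, near the 58% of all genes. Limma-trend and limma-voom each called 4 lower in KYSE180 and 0 higher. Of all genes, limma-trend called 24.6% lower and 33.4% higher. GJA1, GJB2 and GJB6, which were higher in KYSE180, had been taken out of this list, so the selection shaped the direction of its calls. An unadjusted p under 0.05 was reached by 4 of the 7, against 10671 of 17088 over all genes.

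**Figure D3:**
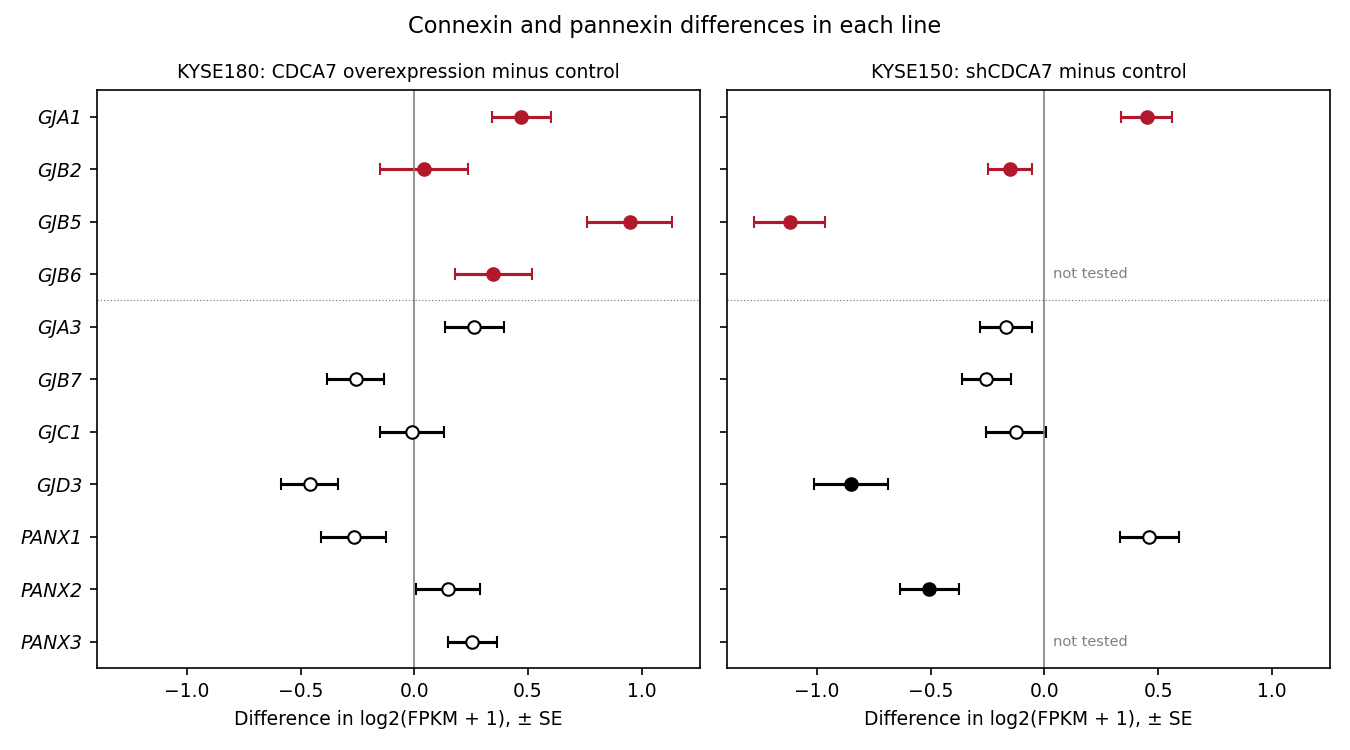
Difference in log2(FPKM + 1) ± SE (horizontal axis) of 8 connexins and 3 pannexins in KYSE180 (CDCA7 overexpression minus control) and KYSE150 (shCDCA7 minus control). Red points above the dotted line are the 4 selected connexins, given without a test, and black points are filled where the gene was called. GJB5 lies at 0.95 in KYSE180 and -1.12 in KYSE150, and GJA1 at 0.47 and 0.45.

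Pannexins form large-pore channels in the same membrane but seldom dock between cells. In KYSE180, 0 of 3 were called by limma-trend, against 9.08% of all genes, and 0 by limma-voom, with 1 at an unadjusted p under 0.05. In KYSE150 1 of 2 tested was called lower, where 19.9% of all genes were called and 9.86% called lower. PANX1 averaged 11.3 ± 1.19 FPKM with overexpression and 13.9 ± 2.03 FPKM in KYSE180 controls, and 25.6 ± 3.61 FPKM with shCDCA7 and 18.2 ± 1.80 FPKM in KYSE150 controls (SD, n = 3 each), without a call in either. PANX2 averaged 24.8 ± 1.61 FPKM with overexpression and 22.5 ± 3.60 FPKM in KYSE180 controls, where it was not called. It fell to 1.49 ± 0.319 FPKM with shCDCA7, against 2.52 ± 0.238 FPKM in KYSE150 controls (SD, n = 3 each; limma-trend adjusted p = 0.0388), a call kept in 1 of 6 fits that left out 1 library. PANX3 stood under 1 FPKM in all libraries.

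Scaffold and trafficking partners carry connexins to the membrane, anchor them there or sort them for degradation. In KYSE180, limma-trend called 0 of 31 tested higher and 1 lower, 3.23% against 9.08% of all genes, with a median of 0.06. Limma-voom called 2, of which 1 was higher. An unadjusted p under 0.05 was reached by 8 of the 31, against 4777 of 15944 over all genes. The lower one was HGS, a subunit that sorts ubiquitinated membrane proteins at endosomes, which fell to 15.5 ± 1.26 FPKM with overexpression, against 21.6 FPKM in controls (n = 3 each; limma-trend log2 -0.46, adjusted p = 0.0460). In KYSE150, 3 of 31 were called higher and 1 lower, 12.9% against 19.9% of all genes, with a median of 0.26. CAV2, a caveolar coat protein, rose to 72.2 ± 11.5 FPKM with shCDCA7, against 50.1 ± 1.55 FPKM in controls (SD, n = 3 each; limma-trend log2 0.51, adjusted p = 0.0345), and with equal library totals its difference was 0.25 and not called. In fits that left out 1 of 6 libraries the calls of CAV2 and HGS held in 1 each. TRIM21, an antibody-binding ubiquitin ligase, fell to 3.78 ± 0.0985 FPKM with shCDCA7, against 7.57 ± 0.531 FPKM in controls (SD, n = 3 each; limma-trend log2 -0.84, adjusted p = 0.00514), and it kept its call in all 12 alternatives run. With overexpression in KYSE180, TRIM21 differed by -0.92 (limma-trend adjusted p = 0.0977) and CAV2 by 0.71 (adjusted p = 0.0598), neither called. Both signs were those of KYSE150, although CDCA7 had moved the other way. TJP1, the scaffold that binds the tail of the GJA1 protein, differed by -0.30 in KYSE180 (limma-trend adjusted p = 0.220) and by 0.12 in KYSE150 (adjusted p = 0.589). CTNNB1, the adherens junction catenin, differed by 0.04 (limma-trend adjusted p = 0.884) and by 0.39 (adjusted p = 0.241).

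Kinases and phosphatases that act on connexin tails gave 0 calls among 13 tested in KYSE180 by limma-trend, against 9.08% of all genes. Limma-voom called 1, and the list median was 0.07. An unadjusted p under 0.05 was reached by 4 of the 13, against 4777 of 15944 over all genes. KYSE150 had 2 higher and 0 lower calls among 14 by limma-trend and by limma-voom, 14.3% against 19.9% of all genes, with 6 at an unadjusted p under 0.05 and a list median of 0.13. CDK1, the mitotic kinase, rose to 54.2 ± 3.05 FPKM with shCDCA7, against 28.9 ± 1.95 FPKM in controls (SD, n = 3 each; limma-trend log2 0.88, adjusted p = 0.00351), and it kept its call in all 12 alternatives run. MAPK3, a kinase of the ERK pathway, rose to 29.8 ± 1.98 FPKM, against 20.4 ± 1.43 FPKM in controls (SD, n = 3 each; limma-trend log2 0.53, adjusted p = 0.0151), a call held in 2 of 6 fits that left out 1 library. With equal library totals its difference was 0.27 and not called. With overexpression in KYSE180, CDK1 differed by 0.55 (limma-trend adjusted p = 0.0871) and MAPK3 by 0.50 (adjusted p = 0.0555), neither called. Both signs were those of KYSE150, although CDCA7 had moved the other way. SRC, a tyrosine kinase that phosphorylates the GJA1 protein, differed by -0.06 in KYSE180 (limma-trend adjusted p = 0.751) and by -0.45 in KYSE150 (adjusted p = 0.0968).

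Transcription factors known to act on connexin promoters gave 3 higher and 0 lower calls among 9 tested in KYSE180 by limma-trend and by limma-voom, 33.3% against 9.08% of all genes, with 4 at an unadjusted p under 0.05 and a median of 0.16. The AP-1 subunit FOS rose to 99.4 ± 3.91 FPKM with overexpression, against 30.6 ± 16.1 FPKM in controls (SD, n = 3 each; limma-trend log2 1.80, SE 0.34, adjusted p = 0.0267). JUN, its partner, rose to 111 ± 2.85 FPKM, against 39.6 ± 15.1 FPKM in controls (SD, n = 3 each; limma-trend log2 1.52, SE 0.23, adjusted p = 0.0180). SNAI1, a repressor of epithelial genes, rose to 4.07 ± 1.26 FPKM, against 1.19 ± 0.493 FPKM in controls (SD, n = 3 each; 3.41 times as high, limma-trend adjusted p = 0.0288). In fits that left out 1 of 6 libraries the calls of FOS and JUN held in 2 and that of SNAI1 in 3. In KYSE150, limma-trend and limma-voom each called 1 of 7 higher and 0 lower, 14.3% against 19.9% of all genes, with 3 at an unadjusted p under 0.05. SP1 rose to 26.4 ± 6.90 FPKM with shCDCA7, against 16.1 ± 0.234 FPKM in controls (SD, n = 3 each; limma-trend log2 0.65, adjusted p = 0.0445), a call held in 2 of 6 such fits, and its difference was 0.40 with equal library totals, where it was still called. JUN stood at 71.4, 33.7 and 76.5 FPKM with shCDCA7, against 36.8, 36.2 and 39.2 FPKM in controls, and was not called (log2 0.60, SE 0.30, limma-trend adjusted p = 0.205). Replicate 2 of shCDCA7 was below the controls and the other replicates above them. FOS was not called in KYSE150 either (log2 0.26, limma-trend adjusted p = 0.608).

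**Figure D4:**
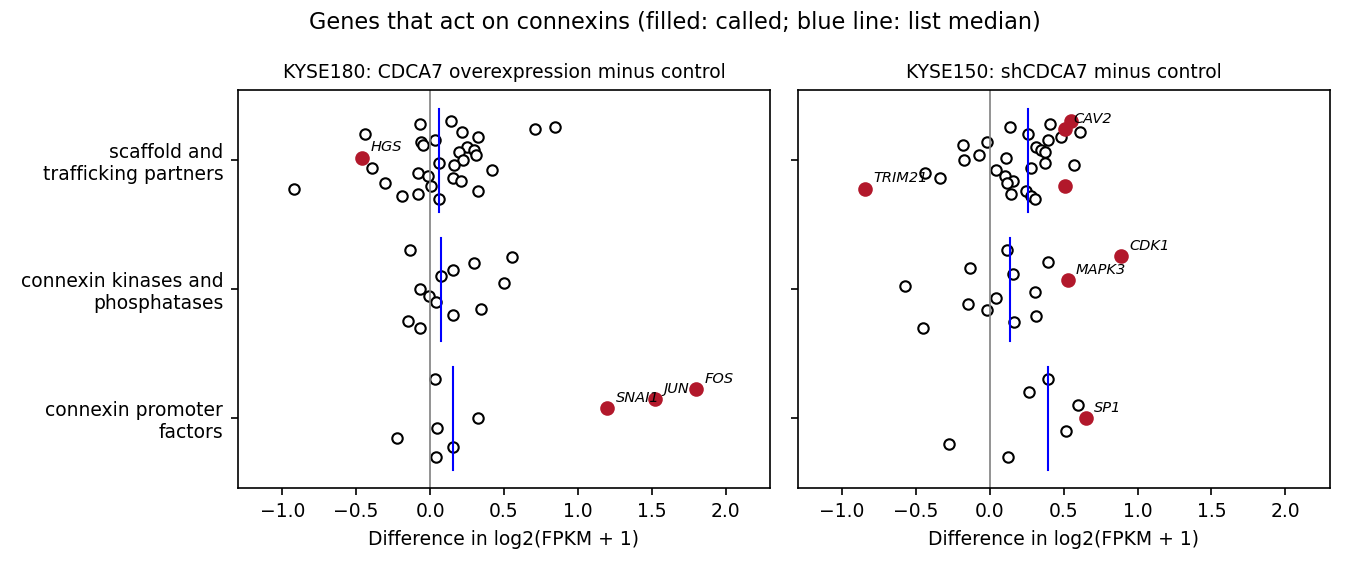
Difference in log2(FPKM + 1) (horizontal axis) of scaffold and trafficking partners, connexin kinases and phosphatases, and connexin promoter factors in KYSE180 (CDCA7 overexpression minus control) and KYSE150 (shCDCA7 minus control), 1 point per gene. Filled points are called genes, some of them named, and blue lines are list medians. FOS (1.80), JUN (1.52) and SNAI1 lie apart in KYSE180, and CDK1 (0.88) and TRIM21 (-0.84) in KYSE150. TRIM21 was also lower in KYSE180 (-0.92), where it was not called.

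Over the other connexins, pannexins and these lists together, 7 of 62 tested genes (11.3%) were called in KYSE180, near the 9.08% of all genes, and 9 of 59 (15.3%) in KYSE150, below the 19.9% of all genes. Their median differences were 0.11 in KYSE180 and 0.15 in KYSE150. The 9 calls in KYSE150 were 6 higher and 3 lower, and with equal library totals 9 calls were 2 higher and 7 lower. The KYSE180 count was 0 without overexpression replicate 1, overexpression replicate 3 or control replicate 1, 1 without overexpression replicate 2 and 11 without control replicate 2. The KYSE150 count was 36 without shCDCA7 replicate 2, 3 without shCDCA7 replicate 3, and 2 without any 1 of the controls.

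Genes whose profile over the 12 libraries lay nearest to each connexin were ranked by the root mean square difference of log2(FPKM + 1), each profile centred on its own mean, among 9052 genes. GJA1, GJB2 and GJB6 differed far more between the lines than with CDCA7. Nearness to them can therefore rest mostly on a like difference between the lines, and shared control was not tested. GJA1 was followed most closely by RPS28P7, BCHE and KLF5, at 0.14, 0.15 and 0.15. RPS28P7 is a ribosomal protein pseudogene that can share reads with its parent gene. KLF5, a squamous epithelial transcription factor, averaged 210 FPKM with overexpression, 129 FPKM in KYSE180 controls, 19.0 FPKM with shCDCA7 and 13.5 FPKM in KYSE150 controls. GJB2 was nearest to RNF227, FGFR2 and XXYLT1, at 0.15, 0.17 and 0.18, and GJB6 to ANXA6, PODXL and PKP1, at 0.14, 0.17 and 0.17. PKP1, a desmosomal plakophilin, averaged 152 FPKM with overexpression, 114 FPKM in KYSE180 controls, 24.3 FPKM with shCDCA7 and 21.7 FPKM in KYSE150 controls. GJB5 had no neighbour so close, with KIRREL1, CHST3 and ADAMTS1 at 0.25, 0.32 and 0.33. KIRREL1, a cell adhesion protein, averaged 23.9 FPKM with overexpression, 16.6 FPKM in KYSE180 controls, 10.4 FPKM with shCDCA7 and 20.7 FPKM in KYSE150 controls.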

How the data were processed

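RNA was sequenced in 12 libraries, grouped by their labels. The authors deposited a table whose header names no unit. The deposited values were taken as FPKM. Multiplying by gene length and dividing by a constant of each library turned 100% of nonzero values into whole reads (tolerance 0.01 reads). Any unit scaled by gene length and library would pass this check, so it does not set FPKM apart from such units. Per the submitters' processing notes, HISAT2 2.0.5 and DESeq2 1.20.0 were used with mm10, a mouse build, while IDs, starts and ends of all 58735 genes are those of GENCODE 29 on GRCh38, which gave the exons. The counting tool and its strand setting are not given in the sources used here.

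A gene was tested if 3 libraries held 10 or more reads, scaled to the median library, and all together 15. The fit was limma-trend (limma 3.58.1, R 4.3.3) on log2(FPKM + 1), two-sided, Benjamini-Hochberg adjusted over all tested genes, threshold 0.05, on the 6 libraries of a line, or all 12 for the controls. The fit was also run on simulated reads with the same spread setting for every gene and no outlying library. That run does not show how the fit performs on these libraries. The connexins and gene lists were chosen with earlier results of these data known. Named are the selected connexins, each other connexin or pannexin that passed the filter, up to 3 called genes per list, direction and line, with TJP1, CTNNB1, SRC and JUN regardless, and the 3 nearest profiles (mean of at least 3 FPKM, a gene symbol, tested). Alternatives were an added 0.1 FPKM, no filter, equal library totals, limma-voom on recovered reads, a replicate block, 1 fit of all 12 libraries, and leaving out each library. Libraries carry no molecular identifiers, so read limits cover counting error only. Some genes that this rule covers are counted in the lists but not reported here by name.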

Additional observations from a re-analysis of the deposited data

How the results depend on the processing

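The differences of the 4 connexins kept their sign under every alternative run, except that of GJB2 in KYSE180, which turned in 3 of 12. GJB6 in KYSE150 is not covered, since it did not pass the filter in the main fit and has no main difference. With an added 0.1 FPKM the GJB2 difference was -0.34 in KYSE150 and 3.13 between controls, and those of GJB6 and GJA1 between controls were 5.46 and 3.63. With limma-voom these 4 were -0.40, 3.26, 9.18 and 3.65, the larger sizes coming from the absence or smallness of the added constant. Equal library totals gave -1.36 for GJB5, 0.22 for GJA1 and -0.26 for GJB2 in KYSE150. With no filter on low reads the calls were 3 in KYSE180 and 1554 in KYSE150, and among connexin-related genes 0 and 4. Replicate numbers did not pair the libraries (correlations of deviations -0.08 to 0.07 for equal numbers), and with a replicate block the calls were 603 and 1001, and 4 and 3 among connexin-related genes. One fit of all 12 libraries gave 2893 calls in KYSE180 and 16 connexin-related calls in KYSE150.

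Leaving out 1 library gave 1 to 2317 calls in KYSE180, 410 to 7948 in KYSE150 and 8538 to 9568 between controls, with 0 to 11 and 2 to 36 connexin-related calls in the lines. The cause was not tested. In these fits GJB2 ran from -0.13 to 0.17, GJB5 from 0.80 to 1.16, GJB6 from 0.19 to 0.48 and GJA1 from 0.40 to 0.55 in KYSE180. In KYSE150 GJB2 ran from -0.24 to -0.11, GJB5 from -1.25 to -0.96 and GJA1 from 0.40 to 0.51. Between controls GJB2 ran from 2.15 to 2.45, GJB5 from -1.03 to -0.67, GJB6 from 2.28 to 2.57 and GJA1 from 3.34 to 3.48. Depth limits GJB6 in KYSE150, where it had at most 1 read per library.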
